A study of Mus musculus with 25 samples.

Results

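Axon guidance ligands and receptors are the secreted or membrane-bound cues and the cell-surface receptors that steer growing axons and later act at synapses. The 72 genes described here were chosen by symbol from 36528 gene IDs: semaphorins and their plexin and neuropilin receptors, ephrins and Eph receptors, Slits and Robos, and netrins with Dcc, neogenin (Neo1) and the Unc5 receptors. They comprise 37 ligands and 35 receptors in 16 families, and 1 non-coding gene whose symbol also matched was left out. Members were picked by symbol, and this choice was made with earlier results of these data known.

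RNA was sequenced from mouse brain cells sorted at an age of 6 months as neurons, by the nuclear protein NeuN, or as astrocytes, by the filament protein Gfap. P301S mice carry a human tau (MAPT) transgene with the P301S mutation, which causes inherited frontotemporal dementia in people. Their littermates without the transgene are called non-Tg here. Neurons gave 6 libraries from P301S and 8 from non-Tg mice, and astrocytes gave 5 from P301S and 6 from non-Tg mice. The labels do not give the transgene's promoter, the brain region, the sex of the mice, how many animals went into a library or whether both cell types came from the same animals, and myeloid cells sorted by Cd11b were not analysed here. Separate animals are not stated, so the spread among libraries of a group may be partly technical. For genotype, a p-value here sets a difference against that spread within a cell type. The main tests between cell types, and of the difference of genotype effects, use a joint fit of all 25 libraries. It shares each gene's spread over the 4 groups, although the median standard error for genotype was 0.219 in neurons and 0.556 in astrocytes. P-values of that fit are thus not set against the spread of astrocytes alone. Gfap was the astrocyte gate, so its own level is not an independent check of the sort.

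A guidance cue acts on the actin skeleton of a growth cone through its receptor, attracting or repelling it. Class 3 semaphorins are secreted and signal through neuropilins together with class A plexins, while most membrane-bound semaphorins bind plexins directly. Ephrins bind Eph receptor kinases at contacts between cells, Slits repel axons through Robo receptors, and netrins attract through Dcc or repel through Unc5 receptors. In the adult brain, members of these families are known for shaping dendritic spines, synapses and the contacts between neurons and glia.

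Total counts per library ran from 1.25e+06 to 4.45e+06. Divided by the library total alone and multiplied by 1e+06, 3 counts thus stand at 0.674 to 2.41. The CPM values in the text instead divide a count by the library total times its composition scaling factor, and multiply it by 1e+06. On that scale 3 counts were 2.25 CPM in P301S astrocyte library 4. The labels' protocol states that astrocytes yielded far less RNA than neurons, and composition scaling (TMM) was strongest in P301S astrocyte library 4, with a factor of 0.535. At a depth of 1e+06 counts, 17849 to 18406 genes were detected in P301S neurons and 17526 to 18816 in non-Tg neurons, against 11947 to 16434 in P301S astrocytes and 15075 to 17881 in non-Tg astrocytes. Of 10 astrocyte markers all 10 were lower in neurons in both genotypes, and of 10 neuron markers 7 were higher in neurons in P301S and 8 in non-Tg. The neuron markers together still reached 640 to 1243 CPM in P301S astrocytes and 529 to 761 CPM in non-Tg astrocytes, against 1954 to 2722 CPM in P301S neurons and 2099 to 2419 CPM in non-Tg neurons. Markers of oligodendrocytes summed to 68.04 to 82.8 CPM in P301S neurons, 41.3 to 86.8 CPM in non-Tg neurons, 384 to 1285 CPM in P301S astrocytes and 199.6 to 526.5 CPM in non-Tg astrocytes. Markers of oligodendrocyte precursors summed to 1.42 to 6.24 CPM in P301S neurons and 0 to 3.53 CPM in non-Tg neurons. In astrocytes they summed to 41.2 to 505 CPM in P301S and 81.6 to 161 CPM in non-Tg. The part of neuronal, oligodendrocyte and precursor RNA in the astrocyte values below was not tested. In sorted pools of this kind, fewer cells of a type and less RNA per cell cannot be told apart.

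The 72 genes together took 0.344 to 0.456% of all counts in P301S neurons (median 0.406%), 0.297 to 0.557% in non-Tg neurons (median 0.401%), 0.141 to 0.2503% in P301S astrocytes (median 0.248%) and 0.162 to 0.259% in non-Tg astrocytes (median 0.214%). Every neuron library thus gave a larger share of its counts to guidance genes than any astrocyte library. Levels of different genes were ranked per length, with the authors' size-factor-adjusted RPKM (reads per kilobase of gene, scaled to library size). In neurons the 3 highest were Eph receptors of class A. Epha7 averaged 13.8 ± 1.25 RPKM in P301S neurons (SD, n = 6) and 13.8 ± 2.78 RPKM in non-Tg neurons (SD, n = 8), Epha6 averaged 9.99 ± 0.765 and 9.73 ± 0.492 RPKM in the same groups, and Epha4 averaged 5.56 ± 0.815 and 6.48 ± 0.801 RPKM. In both neuron groups these 3 means lay further apart than their SDs, and the next in order, Plxna4, followed at 4.09 ± 0.271 RPKM in P301S neurons and 4.43 ± 0.754 RPKM in non-Tg neurons.

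Astrocytes had a different order. The membrane-bound semaphorin Sema6d led with 7.04 ± 1.83 RPKM in P301S astrocytes (SD, n = 5) and 7.90 ± 1.98 RPKM in non-Tg astrocytes (SD, n = 6). Plxnb1, the receptor of the membrane-bound semaphorin Sema4d, averaged 7.02 ± 2.14 RPKM in P301S astrocytes and 4.24 ± 1.16 RPKM in non-Tg astrocytes. Neo1, a Dcc-related receptor for netrins and for repulsive guidance molecules, averaged 6.22 ± 1.74 and 5.83 ± 1.36 RPKM in the same groups. These 3 did not differ beyond their spread in P301S astrocytes. Epha7, first in neurons, ranked 26th of 72 in P301S astrocytes and 22nd in non-Tg astrocytes.

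**Figure D1:**
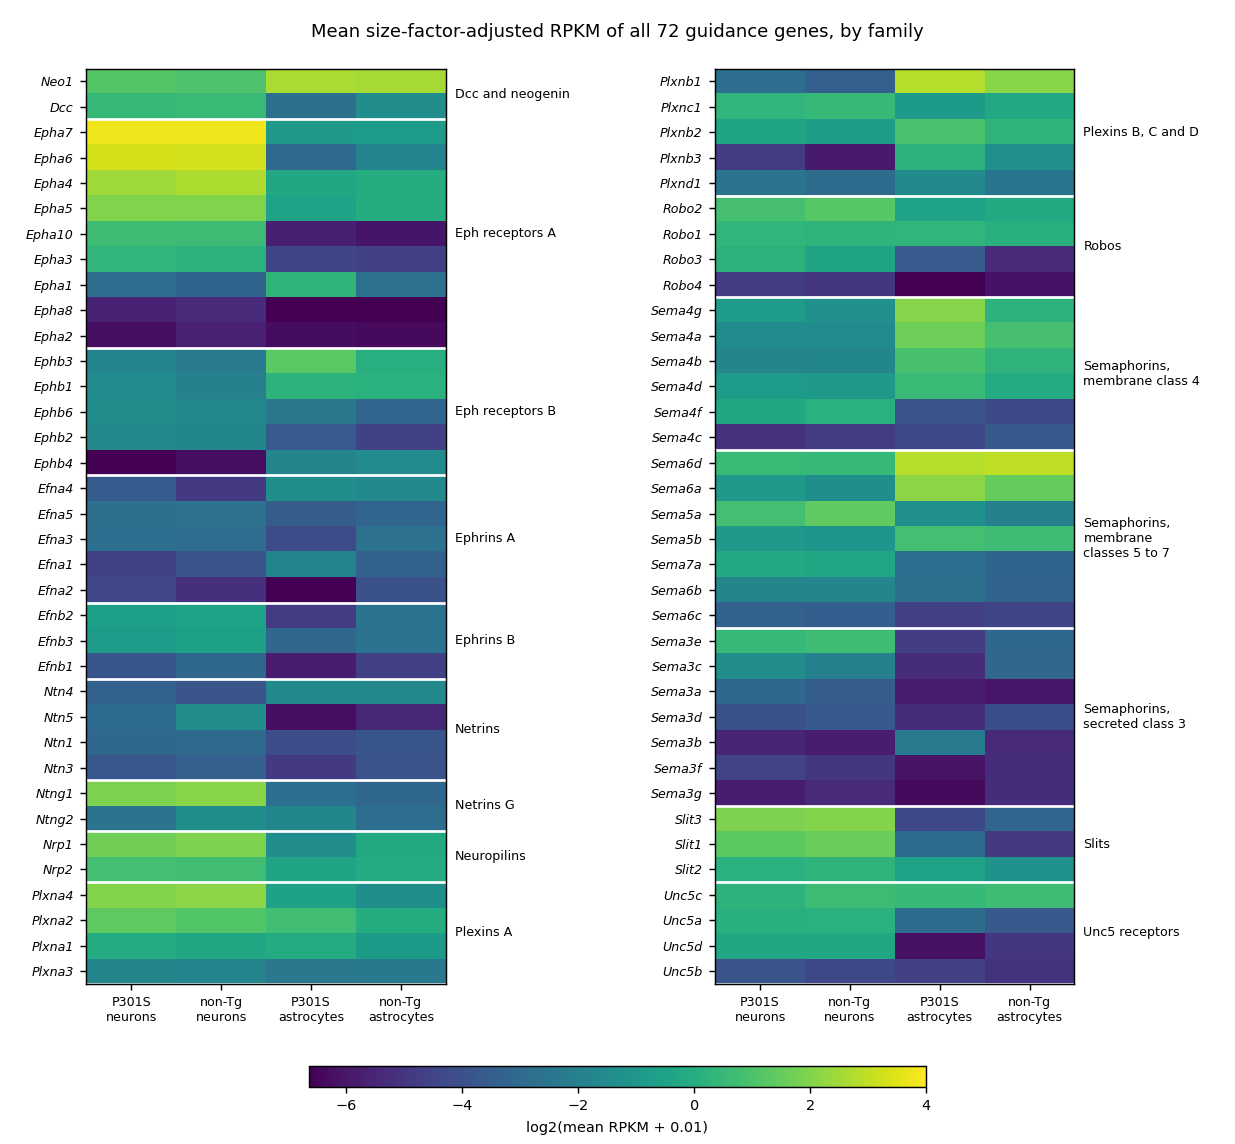
Mean size-factor-adjusted RPKM of all 72 guidance genes, grouped by family, in P301S neurons (n = 6), non-Tg neurons (n = 8), P301S astrocytes (n = 5) and non-Tg astrocytes (n = 6); colour is log2(mean RPKM + 0.01). Epha7, Epha6 and Epha4 are brightest in the neuron columns, Sema6d, Plxnb1 and Neo1 in the astrocyte columns, and most ephrins, netrins and class 3 semaphorins are dim in all 4.

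Most guidance genes that could be tested differed in level between neurons and astrocytes. Of the 55 genes that passed the filter on low counts in the fit of all 25 libraries, 28 were higher and 16 lower in neurons than in astrocytes in P301S mice, and 28 were higher and 15 lower in non-Tg mice. Called genes made up 80.0% of the tested members in P301S, against 52.3% of the 14197 genes tested, and 78.2% in non-Tg, against 46.9%. Genes higher in neurons were 23.2% of all tested in P301S and 21.8% in non-Tg; genes lower in neurons were 29% and 25.1%. The median log2 difference, neurons minus astrocytes, was 1.06 over the members in P301S, with -0.21 over all genes, and 1.22 in non-Tg, with -0.11 over all genes. Calls rest on edgeR's quasi-likelihood F test with Benjamini-Hochberg adjustment over all genes tested (adjusted p under 0.05), and every adjusted p below is of that kind.

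The neuron and astrocyte libraries did not overlap for 32 tested members in P301S (24 higher, 8 lower; 29.7% of all genes tested) and for 34 in non-Tg (24 higher, 10 lower; 31.2%). Scaling by RLE size factors moved the median of all genes by 0.13 in P301S and 0.19 in non-Tg on the log2 scale, and the same 44 and 43 members were called in the same directions. When each genotype was fitted alone, so that the comparisons shared no library, 37 of 49 tested members were called in P301S (41.2% of all genes tested) and 41 of 49 in non-Tg (55.9%). Of these, 35 were called in both, always in the same direction, which is 94.6% of the P301S calls and 85.4% of the non-Tg calls. Ephb2, Ntn5, Plxna2, Plxnb3, Plxnc1 and Slit2 were called in the non-Tg fit only, and Sema3a and Sema3c in the P301S fit only. A member that did not pass the filter of a fit was not tested in it. Over all genes, 3981 were called in both in the same direction, which is 80.8% of the 4925 P301S calls and 59.6% of the 6681 non-Tg calls. With limma-voom, which moved the median of all genes by 0.44 in P301S, 40 members were called in P301S, 39 of them shared with edgeR, and Efnb3, Epha1, Ephb2, Ntn4 and Plxnc1 lost their calls. A gene that passes a count filter only through the cell type where it is high had to differ, so these counts describe the members and are not a test of them.

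**Figure D2:**
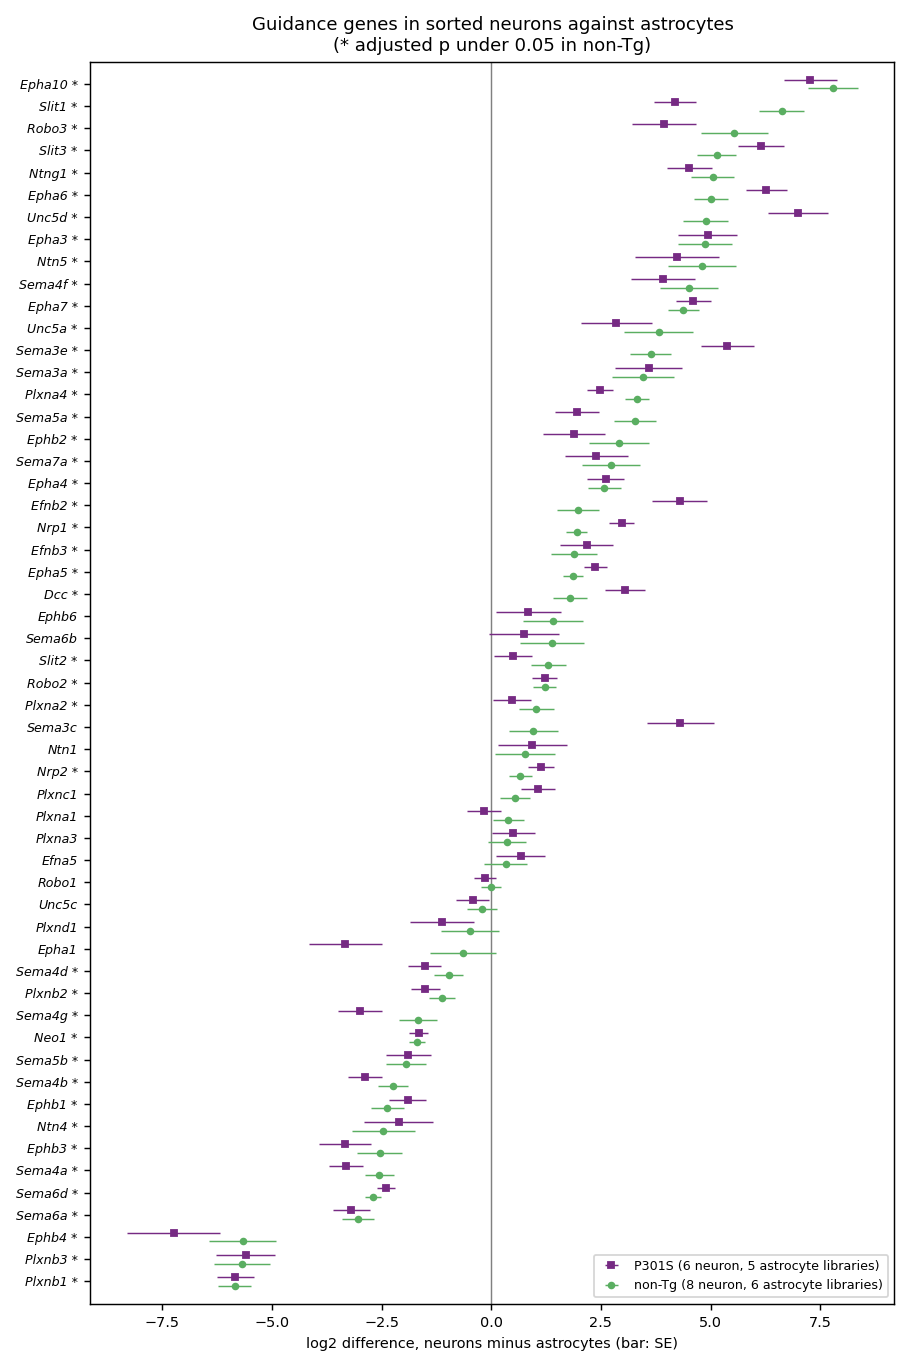
Log2 difference, neurons minus astrocytes, for the 55 tested guidance genes in P301S (squares, 6 neuron and 5 astrocyte libraries) and non-Tg (circles, 8 and 6); bars are standard errors and asterisks mark adjusted p under 0.05 in non-Tg. Epha10 and Slit3 lie far to the right and Plxnb1, Plxnb3 and Ephb4 far to the left in both genotypes.

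The promoters of 4 members whose levels differed strongly between the cell types are printed because they show how unlike the start regions of these genes are in CpG content. They are RefSeq sequences on GRCm38.p6, 250 bases before to 50 after an annotated start, all on the plus strand, with GGGCGG or its reverse complement CCGCCC in capitals. Epha10 (neurons) spans chr4:124881535-124881834, Slit3 (neurons) chr11:35121206-35121505, Plxnb1 (astrocytes) chr9:109095186-109095485 and Plxnb3 (astrocytes) chrX:73756853-73757152. The Plxnb1 and Plxnb3 windows lie within the gene spans given below, so their annotated starts are not the first base of the gene. For Slit3 the annotated start is that first base.
Epha10: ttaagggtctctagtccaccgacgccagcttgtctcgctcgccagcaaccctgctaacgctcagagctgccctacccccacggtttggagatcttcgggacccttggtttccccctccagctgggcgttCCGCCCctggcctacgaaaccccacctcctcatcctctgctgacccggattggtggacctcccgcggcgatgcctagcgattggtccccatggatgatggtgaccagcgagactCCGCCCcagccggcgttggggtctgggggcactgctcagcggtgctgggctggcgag
Slit3: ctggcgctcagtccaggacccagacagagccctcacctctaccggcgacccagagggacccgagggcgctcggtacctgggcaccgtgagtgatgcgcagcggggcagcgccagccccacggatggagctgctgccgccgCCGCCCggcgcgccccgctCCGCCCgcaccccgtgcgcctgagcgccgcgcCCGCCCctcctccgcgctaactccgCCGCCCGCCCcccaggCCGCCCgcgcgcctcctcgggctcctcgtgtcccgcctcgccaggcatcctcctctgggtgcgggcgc
Plxnb1: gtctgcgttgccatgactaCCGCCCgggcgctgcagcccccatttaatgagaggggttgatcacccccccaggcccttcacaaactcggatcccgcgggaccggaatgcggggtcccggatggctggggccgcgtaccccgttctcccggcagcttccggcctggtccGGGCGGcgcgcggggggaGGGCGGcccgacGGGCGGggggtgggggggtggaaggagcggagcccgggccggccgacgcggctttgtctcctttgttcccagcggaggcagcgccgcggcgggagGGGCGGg
Plxnb3: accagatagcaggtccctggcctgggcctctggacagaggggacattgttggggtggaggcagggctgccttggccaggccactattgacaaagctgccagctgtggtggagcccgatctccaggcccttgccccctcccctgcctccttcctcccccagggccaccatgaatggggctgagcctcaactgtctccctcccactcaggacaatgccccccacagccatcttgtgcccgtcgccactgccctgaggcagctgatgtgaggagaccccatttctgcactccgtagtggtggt
The Epha10 promoter holds 21 CpG and 2 such boxes, that of Slit3 41 CpG and 6 boxes, that of Plxnb1 36 CpG and 5 boxes, and that of Plxnb3 4 CpG and 0 boxes, with overlapping boxes counted separately. Of the 72 genes, 62 were matched to 78 promoters, with a median of 19.5 CpG, against 7 over all 32851 promoters of the same length. GGGCGG on either strand stood in 70.51% of the member promoters, against 35.66% of all. It stood in 69.23% of the promoters of members higher in neurons in non-Tg and in 68.18% of those higher in astrocytes. TATAAA on either strand stood in 2.564% of the member promoters, against 13.62% of all. These are letter matches, not sites shown to be bound.

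Among the receptors, the Eph receptors split by class. Of 7 tested class A receptors 6 were higher in neurons in both genotypes, with a median log2 difference of 4.61 in P301S and 4.38 in non-Tg. Epha7 (chr4:28813066-28967503, on GRCm38.p6 in the RefSeq annotation as for all genes below), a receptor known for repulsion in topographic maps and for dendrite growth, had 528, 633 and 682 CPM in P301S neurons, 406, 641 and 784 CPM in non-Tg neurons, 13.4, 14, 35, 62.1 and 7.03 CPM in the 5 P301S astrocyte libraries and 13.2, 24.3 and 51.4 CPM in non-Tg astrocytes. For groups of more than 5 libraries the 3 values are the lowest, the median and the highest, here and below. All 14 neuron libraries lay above all 11 astrocyte libraries, and the log2 difference was 4.61 (SE 0.41, adjusted p = 3.67e-11) in P301S and 4.38 (SE 0.36, adjusted p = 5.7e-12) in non-Tg. Epha6 (chr16:59641433-60610911) had 224, 272 and 287 CPM in P301S neurons, 224, 255 and 276 CPM in non-Tg neurons, 6.68, 4.67, 1.11, 3.74 and 0.37 CPM in the 5 P301S astrocyte libraries and 0.974, 7.63 and 14.1 CPM in non-Tg astrocytes. Its neuron libraries were narrowly spread and lay far above every astrocyte library, with log2 differences of 6.27 (SE 0.47, adjusted p = 9.23e-13) in P301S and 5.01 (SE 0.39, adjusted p = 1.42e-12) in non-Tg.

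Epha10, which encodes a receptor without kinase activity, was all but absent from astrocytes. Its libraries held 28.9, 51.4 and 85 CPM in P301S neurons, 30.8, 47.4 and 78.1 CPM in non-Tg neurons, 0.557, 0.311, 0, 0.748 and 0 CPM in the 5 P301S astrocyte libraries and 0, 0.16 and 0.487 CPM in non-Tg astrocytes. The 6 non-Tg astrocyte libraries had 3 counts in all, against 1128 in the 8 non-Tg neuron libraries, a ratio of 308.7 after scaling to library size with a 95% counting interval of 105 to 1499 (adjusted p = 2.73e-13 in the fit). Epha5, a receptor for class A ephrins, had 175, 214 and 260.2 CPM in P301S neurons, 182, 211 and 230.4 CPM in non-Tg neurons, 62.1, 46.4, 25.1, 61.4 and 15.2 CPM in the 5 P301S astrocyte libraries and 52.1, 58.5 and 61.3 CPM in non-Tg astrocytes. The groups did not overlap in either genotype, at log2 differences of 2.38 (SE 0.26, adjusted p = 3.7e-09) in P301S and 1.86 (SE 0.23, adjusted p = 2.92e-08) in non-Tg. Epha4, a receptor for ephrins of both classes that astrocytes are known to engage at synapses with their ephrins, had 168, 196 and 229.7 CPM in P301S neurons, 182, 228 and 261 CPM in non-Tg neurons, 48.7, 78.2, 11.8, 5.24 and 14.1 CPM in the 5 P301S astrocyte libraries and 17.4, 35.1 and 66.8 CPM in non-Tg astrocytes. It was higher in neurons in both genotypes without overlap, by 2.61 (SE 0.42, adjusted p = 4.04e-06) in P301S and 2.58 (SE 0.38, adjusted p = 8.29e-07) in non-Tg. Epha3 was higher in neurons as well, by 4.93 in P301S and 4.88 in non-Tg. Epha1 stood lower in neurons in P301S at -3.33 (SE 0.83, adjusted p = 0.00114), a call that limma-voom did not make (-1.90, adjusted p = 0.0891), and it was not called in non-Tg at -0.64 (SE 0.75, adjusted p = 0.517).

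The class B receptors went mostly the other way. Of 5 tested, 1 was higher and 3 were lower in neurons in both genotypes, with a median of -1.91 in P301S and -2.37 in non-Tg. Ephb1, a receptor for class B ephrins known at excitatory synapses, had 5.68, 8.95 and 12.9 CPM in P301S neurons, 3.16, 5.85 and 11.7 CPM in non-Tg neurons, 39.8, 27.1, 13.3, 59.9 and 28.1 CPM in the 5 P301S astrocyte libraries and 13.8, 31.9 and 55.5 CPM in non-Tg astrocytes. Every neuron library lay below every astrocyte library of its genotype, at -1.91 (SE 0.42, adjusted p = 0.000265) in P301S and -2.37 (SE 0.37, adjusted p = 2.64e-06) in non-Tg. Ephb3 had 4.26, 6.19 and 8.28 CPM in P301S neurons, 1.59, 4.84 and 6.59 CPM in non-Tg neurons, 68.2, 22.1, 179.9, 0.748 and 41.4 CPM in the 5 P301S astrocyte libraries and 15.8, 25.1 and 40.9 CPM in non-Tg astrocytes. The P301S astrocyte libraries spread from near 0 to the highest value of all, and with that low library the groups overlapped in P301S, at -3.33 (SE 0.59, adjusted p = 1.75e-05), while they did not in non-Tg, at -2.54 (SE 0.52, adjusted p = 0.000114).

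Ephb4, known as the receptor of Efnb2 on veins, was also lower in neurons. It was at 0 in all 6 P301S neuron libraries, and its astrocyte values were 5.85, 0.934, 5.53, 12.7 and 12.2 CPM in P301S and 2.63, 6.84 and 17.1 CPM in non-Tg. Against a floor of 3 counts over the group, the 0 in P301S neurons makes it at least 29.2-fold lower there than in P301S astrocytes with 89 counts. In non-Tg the 8 neuron libraries had 3 counts in all, against 151 in the astrocyte libraries, and the level in astrocytes was 61.3 times that in neurons with a 95% counting interval of 20.6 to 300.6. Markers of endothelial cells summed to 0.737 to 25.1 CPM in P301S astrocytes and 0.867 to 25.9 CPM in non-Tg astrocytes, against 8.17 to 15.6 CPM in P301S neurons and 8.16 to 19.3 CPM in non-Tg neurons. Ephb2, another class B receptor, was higher in neurons by 1.89 (SE 0.71, adjusted p = 0.0254) in P301S and 2.91 (SE 0.69, adjusted p = 0.000717) in non-Tg. The P301S call was lost in the P301S libraries alone (1.86, adjusted p = 0.0826 with edgeR), with limma-voom (2.47, adjusted p = 0.0613), and without P301S astrocyte library 2 (1.60, adjusted p = 0.0537 with edgeR) or P301S neuron library 3 (1.73, adjusted p = 0.0531 with edgeR).

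Ephrins, the ligands of these receptors, were low in both cell types. Only Efnb2, Efnb3 and Efna5 of 8 passed the filter. Efnb2, a membrane-spanning ligand for class B receptors and Epha4, had 12.9, 18.7 and 19.6 CPM in P301S neurons, 13.2, 17.7 and 27 CPM in non-Tg neurons, 2.23, 0, 0.737, 0.748 and 0.37 CPM in the 5 P301S astrocyte libraries and 0.578, 5.75 and 7.8 CPM in non-Tg astrocytes. It was higher in neurons in both genotypes without overlap, by 4.29 (SE 0.64, adjusted p = 1.04e-06) in P301S and 1.97 (SE 0.48, adjusted p = 0.000968) in non-Tg. Efnb3 was higher by 2.18 in P301S, where limma-voom did not call it (adjusted p = 0.0541), and by 1.88 in non-Tg, while Efna5, anchored to the membrane by a lipid, was not called, at 0.67 (SE 0.56, adjusted p = 0.327) in P301S and 0.33 (SE 0.50, adjusted p = 0.632) in non-Tg. Efna4, the class A ephrin with the highest mean RPKM, was not tested between cell types: it had 0, 0.395 and 1.78 CPM in P301S neurons, 0, 0 and 0.68 CPM in non-Tg neurons, 0, 0, 7, 0 and 12.2 CPM in the 5 P301S astrocyte libraries and 0, 1.74 and 12.2 CPM in non-Tg astrocytes. Its highest values stood in single astrocyte libraries of each genotype, and 10.51% of its exon bases overlap another gene.

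The Slits, secreted repellents that bind Robos, stood higher in neurons. In P301S 2 of 3 were higher in neurons and in non-Tg all 3, with medians of 4.19 and 5.14. Slit1 (chr19:41597824-41747275) had 58.7, 71.6 and 92.2 CPM in P301S neurons, 38.6, 75.2 and 189 CPM in non-Tg neurons, 2.78, 8.1, 5.53, 2.25 and 0.74 CPM in the 5 P301S astrocyte libraries and 0, 0.677 and 1.57 CPM in non-Tg astrocytes. Slit3 (chr11:35121456-35708507) had 85.5, 108 and 125 CPM in P301S neurons, 46.6, 114 and 194 CPM in non-Tg neurons, 3.34, 1.87, 0, 0 and 1.11 CPM in the 5 P301S astrocyte libraries and 1.95, 2.31 and 6.93 CPM in non-Tg astrocytes. For both, the highest astrocyte library lay far below the lowest neuron library. Slit1 differed by 4.19 (SE 0.48, adjusted p = 1.06e-08) in P301S and 6.62 (SE 0.52, adjusted p = 2.12e-12) in non-Tg, and Slit3 by 6.14 (SE 0.52, adjusted p = 1.71e-11) in P301S and 5.14 (SE 0.44, adjusted p = 1.14e-11) in non-Tg. Slit2 had 35.2, 52.1 and 83.9 CPM in P301S neurons, 48.7, 56.6 and 71.4 CPM in non-Tg neurons, 28.1, 14.6, 123.1, 15.7 and 12.6 CPM in the 5 P301S astrocyte libraries and 13.2, 24.7 and 37.5 CPM in non-Tg astrocytes. Its astrocyte level was not low, and P301S astrocyte library 3 exceeded every neuron library, and the difference was called in non-Tg, at 1.30 (SE 0.40, adjusted p = 0.00675), and not in P301S, at 0.49 (SE 0.43, adjusted p = 0.348).

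Their Robo receptors did not follow 1 pattern. Robo1 had 63.7, 71.8 and 85 CPM in P301S neurons, 40.8, 63.7 and 95.6 CPM in non-Tg neurons, 50.7, 98.1, 102, 57.6 and 95 CPM in the 5 P301S astrocyte libraries and 47.7, 65.6 and 90.1 CPM in non-Tg astrocytes. The 4 groups overlapped throughout, and the difference was near 0 at -0.15 (SE 0.25, adjusted p = 0.651) in P301S and -0.01 (SE 0.23, adjusted p = 0.986) in non-Tg, where its sign was positive under RLE scaling, at 0.18. Robo2 had 95.6, 113 and 126 CPM in P301S neurons, 121, 134 and 199 CPM in non-Tg neurons, 30.1, 29.3, 40.5, 44.2 and 96.5 CPM in the 5 P301S astrocyte libraries and 38.9, 55.4 and 91.9 CPM in non-Tg astrocytes. It was higher in neurons, by 1.22 (SE 0.29, adjusted p = 0.000578) in P301S and 1.22 (SE 0.25, adjusted p = 0.000161) in non-Tg, and only P301S astrocyte library 5 reached the lowest P301S neuron library. Robo3, a receptor known from the crossing of commissural axons, was higher by 3.94 and 5.54 in the same order. Robo4, the Robo of blood vessels, was at or below 1.78 CPM in every library.

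**Figure D3:**
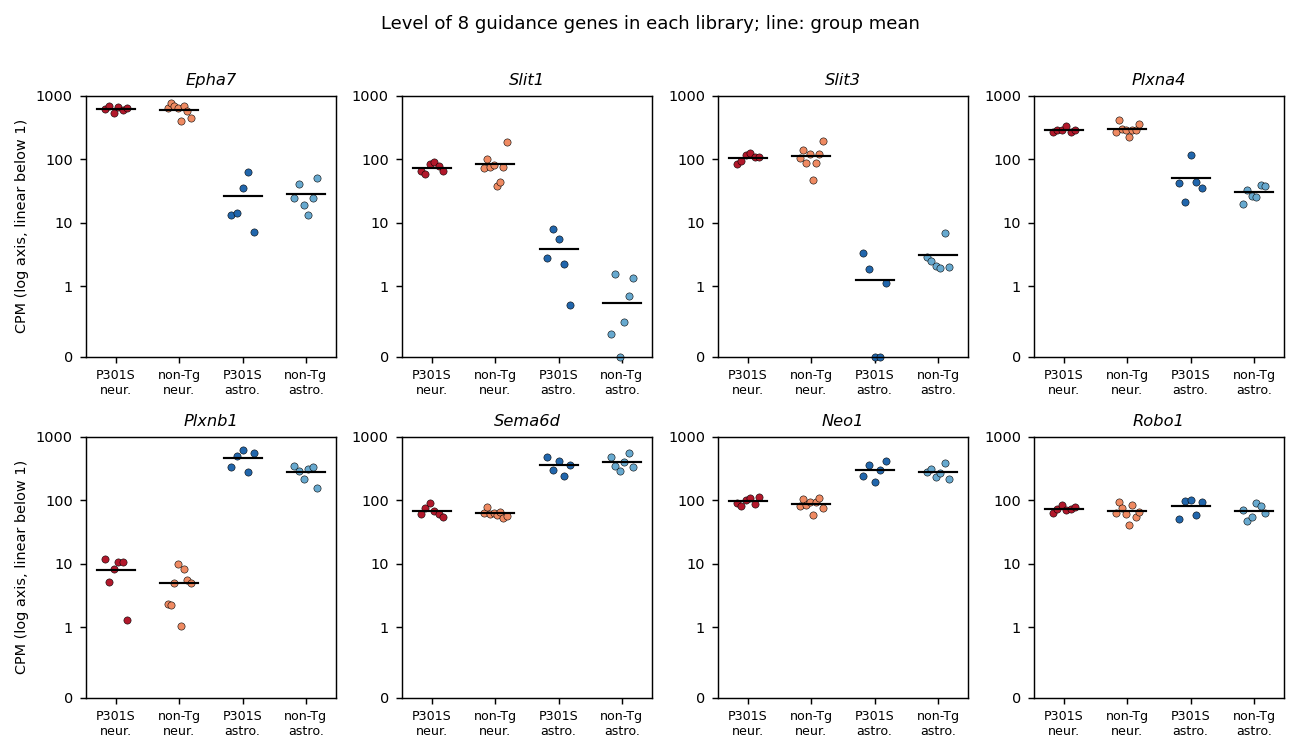
Level of 8 guidance genes in every library, as CPM on a log axis that is linear below 1 CPM; points are libraries, lines are group means, and groups run P301S neurons, non-Tg neurons, P301S astrocytes, non-Tg astrocytes. Epha7, Slit1, Slit3 and Plxna4 are higher in every neuron library, Plxnb1, Sema6d and Neo1 are higher in every astrocyte library, and Robo1 lies between 40.8 and 102 CPM in all 4 groups.

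In the netrin system the receptors divided between the cell types. Dcc, the attractive netrin receptor, had 62.6, 81.9 and 97.6 CPM in P301S neurons, 57.2, 84.2 and 102 CPM in non-Tg neurons, 8.91, 21.8, 12.2, 2.25 and 0.74 CPM in the 5 P301S astrocyte libraries and 8.28, 24.4 and 36.4 CPM in non-Tg astrocytes. Neo1 (chr9:58874679-59036614) had 82.4, 95.2 and 112 CPM in P301S neurons, 59.3, 88.2 and 109.5 CPM in non-Tg neurons, 246, 365, 192, 305 and 410.1 CPM in the 5 P301S astrocyte libraries and 215, 274 and 392 CPM in non-Tg astrocytes. The groups did not overlap for either gene, and they went in opposite directions: Dcc was higher in neurons, by 3.06 (SE 0.46, adjusted p = 1.28e-06) in P301S and 1.79 (SE 0.39, adjusted p = 0.000227) in non-Tg, and Neo1 lower, at -1.65 (SE 0.21, adjusted p = 7.63e-08) in P301S and -1.70 (SE 0.19, adjusted p = 3.22e-09) in non-Tg. Of the repulsive Unc5 receptors, 2 of 3 tested were higher in neurons in both genotypes. Unc5d had 33.6, 41 and 54.2 CPM in P301S neurons, 27.9, 36.1 and 54.7 CPM in non-Tg neurons, 0.557, 0.623, 0, 0 and 0 CPM in the 5 P301S astrocyte libraries and 0, 0.994 and 3.21 CPM in non-Tg astrocytes. No astrocyte library came near the neuron values, and the difference was 6.99 (SE 0.68, adjusted p = 2.72e-10) in P301S and 4.89 (SE 0.51, adjusted p = 1.17e-09) in non-Tg. Unc5c, the Unc5 receptor with the highest mean RPKM, had 40.8, 67.3 and 83.4 CPM in P301S neurons, 70.1, 87.5 and 107 CPM in non-Tg neurons, 85.5, 88.4, 203, 53.1 and 7.77 CPM in the 5 P301S astrocyte libraries and 72.2, 98.2 and 138 CPM in non-Tg astrocytes. Its groups overlapped, with 5 P301S astrocyte libraries spread from 7.77 to 203 CPM, and it was not called, at -0.42 (SE 0.38, adjusted p = 0.365) and -0.21 (SE 0.34, adjusted p = 0.642).

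The netrins themselves were low. Ntn5 was higher in neurons without overlap in either genotype, by 4.24 (SE 0.95, adjusted p = 0.000362) in P301S and 4.80 (SE 0.77, adjusted p = 3.49e-06) in non-Tg. Its P301S libraries held 30 counts in neurons and 1 in astrocytes, a ratio of 30.5 after scaling to library size with a 95% counting interval of 5.07 to 1244. Its non-Tg libraries held 151 counts in neurons and 3 in astrocytes, a ratio of 41.3 with an interval of 13.9 to 203. Part of its exon bases overlap the neighbouring gene Sec1. Ntn1, the classical attractant for Dcc, reached at most 5.57 CPM in P301S astrocytes and 5.64 CPM in non-Tg neurons, and it was not called, at 0.94 (SE 0.78, adjusted p = 0.321) in P301S and 0.76 (SE 0.69, adjusted p = 0.39) in non-Tg. Ntn4, a netrin of basement membranes, had 0.445, 1.02 and 2.79 CPM in P301S neurons, 0, 0.617 and 2.04 CPM in non-Tg neurons, 4.73, 7.79, 0, 0 and 12.6 CPM in the 5 P301S astrocyte libraries and 1.99, 3.71 and 9.1 CPM in non-Tg astrocytes. It was lower in neurons, at -2.11 (SE 0.79, adjusted p = 0.024) in P301S and -2.47 (SE 0.72, adjusted p = 0.00478) in non-Tg, although the groups overlapped in both genotypes. The P301S call was lost with limma-voom (-1.52, adjusted p = 0.204) and when any of P301S neuron libraries 2, 3 or 5 was left out (-1.90 to -2.01, adjusted p = 0.0512 to 0.0614 with edgeR). Markers of mural cells and fibroblasts were also lower in neurons, with summed values of 13.0 to 23.8 CPM in P301S neurons, 15.3 to 34.6 CPM in non-Tg neurons, 108 to 206 CPM in P301S astrocytes and 98.4 to 216 CPM in non-Tg astrocytes. Their part in the Ntn4 difference was not tested.

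The netrin-G proteins are lipid-anchored relatives that bind postsynaptic partners in place of Dcc. Ntng1 (chr3:109780050-110149972) had 90.3, 104 and 173 CPM in P301S neurons, 95.8, 128 and 156 CPM in non-Tg neurons, 4.18, 7.47, 0.737, 1.5 and 9.61 CPM in the 5 P301S astrocyte libraries and 0, 2.76 and 11.3 CPM in non-Tg astrocytes. It was higher in every neuron library than in any astrocyte library, by 4.51 (SE 0.52, adjusted p = 8.47e-09) in P301S and 5.05 (SE 0.48, adjusted p = 1.45e-10) in non-Tg. Ntng2 had 0.445, 1.79 and 2.4 CPM in P301S neurons, 0.529, 3.27 and 10.54 CPM in non-Tg neurons, 1.11, 7.16, 4.05, 2.99 and 0 CPM in the 5 P301S astrocyte libraries and 0, 0.95 and 4.17 CPM in non-Tg astrocytes. Its groups overlapped, it did not pass the filter of the joint fit, and 12.58% of its exon bases overlap another gene.

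Among the semaphorins, the secreted class 3 ligands that passed the filter of the joint fit stood higher in neurons. Of the 7, only 3 passed the filter, and 3 were called higher in P301S and 2 in non-Tg, with medians of 4.31 and 3.46. Sema3e, a ligand of the plexin Plxnd1, had 29.8, 52.5 and 68.8 CPM in P301S neurons, 36.5, 61.2 and 79.7 CPM in non-Tg neurons, 2.78, 1.25, 0, 1.5 and 0.37 CPM in the 5 P301S astrocyte libraries and 1.16, 3.25 and 13.6 CPM in non-Tg astrocytes. Sema3a, the collapsin that repels axons through Nrp1, had 5.04, 6.4 and 9.89 CPM in P301S neurons, 1.89, 3.11 and 9.53 CPM in non-Tg neurons, 1.11, 0, 0.369, 0.748 and 0.37 CPM in the 5 P301S astrocyte libraries and 0, 0.166 and 1.05 CPM in non-Tg astrocytes. No astrocyte library reached a neuron library of its genotype for either gene, and no astrocyte library held more than 4 counts of Sema3a. Sema3e differed by 5.38 (SE 0.60, adjusted p = 5.07e-09) in P301S and 3.63 (SE 0.47, adjusted p = 8.63e-08) in non-Tg, and Sema3a by 3.59 (SE 0.76, adjusted p = 0.000178) in P301S and 3.46 (SE 0.70, adjusted p = 0.000111) in non-Tg.

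The co-receptors of this class, the neuropilins, were also higher in neurons. Nrp1 (chr8:128358591-128505476) had 86, 112 and 163 CPM in P301S neurons, 101, 138 and 174 CPM in non-Tg neurons, 17.8, 17.1, 11.8, 16.5 and 9.98 CPM in the 5 P301S astrocyte libraries and 17.9, 32.9 and 58.1 CPM in non-Tg astrocytes. Its groups did not overlap, at 2.97 (SE 0.29, adjusted p = 2.64e-10) in P301S and 1.95 (SE 0.24, adjusted p = 4.19e-08) in non-Tg. Nrp2 had 57.6, 86.2 and 100.4 CPM in P301S neurons, 66.1, 73.8 and 80.3 CPM in non-Tg neurons, 60.7, 39.6, 13.3, 27.7 and 41 CPM in the 5 P301S astrocyte libraries and 28.4, 44.1 and 72.6 CPM in non-Tg astrocytes. Its groups overlapped, and the difference was smaller at 1.13 (SE 0.30, adjusted p = 0.00214) in P301S and 0.66 (SE 0.27, adjusted p = 0.0397) in non-Tg. The non-Tg call of Nrp2 was lost when any of non-Tg neuron libraries 1, 2 or 4 or non-Tg astrocyte libraries 1, 3 or 6 was left out, with log2 differences of 0.57 to 0.66.

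Of the class A plexins, which transmit the class 3 signal, Plxna4 (chr6:32144543-32588192) was the most neuronal. It had 265, 287 and 329 CPM in P301S neurons, 223, 290.2 and 424 CPM in non-Tg neurons, 42.6, 21.2, 115, 43.4 and 34.8 CPM in the 5 P301S astrocyte libraries and 19.9, 29.3 and 39.3 CPM in non-Tg astrocytes. Every neuron library exceeded every astrocyte library, by 2.48 (SE 0.29, adjusted p = 1.74e-08) in P301S and 3.33 (SE 0.28, adjusted p = 7.46e-12) in non-Tg. Plxna2 was called in non-Tg, at 1.03 (SE 0.39, adjusted p = 0.0313), and not in P301S, at 0.48 (SE 0.43, adjusted p = 0.366), where 1 astrocyte library of 351 CPM lay above all neuron libraries. The non-Tg call was lost when any of non-Tg neuron library 2 or non-Tg astrocyte libraries 1, 3 or 6 was left out, with log2 differences of 0.90 to 0.98. Plxna1 and Plxna3 were not called in either genotype.

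The class B plexins stood higher in the astrocyte libraries, which also held more marker RNA of oligodendrocytes and their precursors, as given above. Of the 5 plexins of classes B, C and D, 3 were lower in neurons in both genotypes. Plxnb1 (chr9:109093849-109119915) had 1.29, 9.42 and 11.7 CPM in P301S neurons, 1.06, 4.92 and 10.01 CPM in non-Tg neurons, 341, 492, 611, 278 and 562 CPM in the 5 P301S astrocyte libraries and 154, 301.1 and 347 CPM in non-Tg astrocytes. The difference, -5.84 (SE 0.42, adjusted p = 4.98e-13) in P301S and -5.85 (SE 0.38, adjusted p = 1.76e-14) in non-Tg, came with no overlap and had the smallest p of any member in non-Tg. Plxnb3 (chrX:73756556-73772510), whose ligand is Sema5a, had 0.473, 0.875 and 2.88 CPM in P301S neurons, 0, 0.188 and 1.1 CPM in non-Tg neurons, 42, 49.2, 93.6, 102 and 1.85 CPM in the 5 P301S astrocyte libraries and 15, 19.7 and 24.5 CPM in non-Tg astrocytes. Neuron libraries were at or near 0, and only the low P301S astrocyte library 5 fell among them, with differences of -5.60 (SE 0.66, adjusted p = 1.71e-08) in P301S and -5.68 (SE 0.65, adjusted p = 6.58e-09) in non-Tg. Plxnb2, known from neural progenitors and glia, was lower, at -1.50 and -1.12 in the same order.

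The membrane-bound semaphorins that bind such plexins mostly stood higher in the astrocyte libraries too. Of 5 tested class 4 members, 4 were lower and 1 was higher in neurons in both genotypes, with medians of -2.88 in P301S and -1.67 in non-Tg. Sema4a had 7.31, 9.87 and 17.8 CPM in P301S neurons, 4.23, 10.1 and 18.1 CPM in non-Tg neurons, 88.8, 53.9, 166, 124 and 98.7 CPM in the 5 P301S astrocyte libraries and 33.1, 50.2 and 100.1 CPM in non-Tg astrocytes. Sema4b had 3.91, 6.32 and 9.36 CPM in P301S neurons, 3.18, 6.46 and 10.9 CPM in non-Tg neurons, 48.4, 37.4, 49, 86.8 and 20.3 CPM in the 5 P301S astrocyte libraries and 18.2, 34.2 and 38.4 CPM in non-Tg astrocytes. For both, all neuron libraries lay below all astrocyte libraries. Sema4a differed by -3.31 (SE 0.38, adjusted p = 1.11e-08) in P301S and -2.55 (SE 0.33, adjusted p = 8.11e-08) in non-Tg, and Sema4b by -2.88 (SE 0.39, adjusted p = 2.44e-07) in P301S and -2.24 (SE 0.34, adjusted p = 1.52e-06) in non-Tg. Sema4g was lower as well, at -2.99 (SE 0.51, adjusted p = 8.28e-06) in P301S and -1.67 (SE 0.44, adjusted p = 0.00192) in non-Tg, with overlap in both. Sema4d, the ligand of Plxnb1, differed by -1.52 in P301S and by -0.97 in non-Tg, where the call was lost without astrocyte library 5 (-0.71, adjusted p = 0.0776 with edgeR). Sema4f was the exception, higher in neurons by 3.92 (SE 0.72, adjusted p = 2.91e-05) in P301S and 4.50 (SE 0.66, adjusted p = 6.9e-07) in non-Tg.

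Classes 5 to 7 held 3 members that were lower and 2 that were higher in neurons in both genotypes. Sema6d (chr2:124089943-124667789), a ligand of class A plexins, had 54.6, 64.6 and 91.3 CPM in P301S neurons, 52.4, 61.9 and 77.6 CPM in non-Tg neurons, 489.5, 295, 419.9, 244 and 356 CPM in the 5 P301S astrocyte libraries and 293, 375 and 565 CPM in non-Tg astrocytes. Sema6a, another ligand of these plexins, had 9.94, 20.2 and 45.8 CPM in P301S neurons, 10.4, 17.2 and 20.5 CPM in non-Tg neurons, 110.0, 152, 105, 471 and 178 CPM in the 5 P301S astrocyte libraries and 71.1, 79.9 and 294 CPM in non-Tg astrocytes. Neither gene overlapped between cell types, although 2 non-Tg and 1 P301S astrocyte library carried much more Sema6a than the rest. Sema6d differed by -2.40 (SE 0.21, adjusted p = 3.41e-11) in P301S and -2.70 (SE 0.19, adjusted p = 9e-14) in non-Tg, and Sema6a by -3.19 (SE 0.42, adjusted p = 1.48e-07) in P301S and -3.04 (SE 0.37, adjusted p = 2.88e-08) in non-Tg. Sema5b was lower, at -1.89 and -1.93, while Sema5a was higher by 1.95 and 3.27 and Sema7a by 2.39 and 2.73, each in P301S and non-Tg in this order. Sema6a and several class 4 semaphorins are also known from oligodendrocytes, whose markers were higher in the astrocyte libraries as given above.

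The 17 members that did not pass the filter of the joint fit were Efna1 to Efna4, Efnb1, Epha2, Epha8, Ntn3, Ntng2, Robo4, Sema3b, Sema3d, Sema3f, Sema3g, Sema4c, Sema6c and Unc5b. No group mean of any of them exceeded 5.94 CPM, the mean of Sema3b in P301S astrocytes. Sema3b, named after its values were seen, had 7.52, 0.934, 6.27, 15 and 0 CPM in P301S astrocytes and at most 1.28 CPM in any other library. It did not pass the filter in any fit and was not tested.

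Of 40 intracellular effectors, which act downstream of the receptors, 39 were tested, with 10 higher and 13 lower in neurons in P301S and 12 higher and 11 lower in non-Tg. This is 59.0% called in each genotype, against 52.3% of all genes in P301S and 46.9% in non-Tg. This list and that of the further partners below were chosen with earlier results of these data known. The kinase Pak3, an effector of Rac and Cdc42, had 90.4 ± 13.9 CPM in neurons and 9.88 ± 6.26 CPM in astrocytes in P301S (SD, n = 6 and 5) and 109 ± 21.6 CPM in neurons and 11.4 ± 5.56 CPM in astrocytes in non-Tg (SD, n = 8 and 6), a log2 difference of 3.21 (SE 0.36, adjusted p = 7.45e-09) in P301S and 3.25 (SE 0.33, adjusted p = 4.57e-10) in non-Tg. The exchange factor Tiam1 was higher by 4.11 (SE 0.42, adjusted p = 1.03e-09) and 3.59 (SE 0.37, adjusted p = 6.71e-10), and the actin-binding Ablim3 by 4.82 (SE 0.65, adjusted p = 2.17e-07) and 4.78 (SE 0.59, adjusted p = 3.66e-08). Lower in neurons were the exchange factor Farp1, at -4.75 (SE 0.27, adjusted p = 2.04e-15) and -4.55 (SE 0.24, adjusted p = 9.97e-17), and the Rac activator Dock1, at -6.10 (SE 0.39, adjusted p = 2.72e-14) and -5.93 (SE 0.34, adjusted p = 1.33e-15). Each pair of values is for P301S and non-Tg.

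Of 18 further ligands, receptors and partners 17 were tested, with 8 higher and 4 lower in neurons in both genotypes, which is 70.6% against the same 52.3% and 46.9%. Higher were the adhesion proteins Chl1, by 1.87 (SE 0.27, adjusted p = 6.31e-07) and 3.49 (SE 0.26, adjusted p = 7.01e-13), and L1cam, by 2.97 (SE 0.52, adjusted p = 1.23e-05) and 3.85 (SE 0.50, adjusted p = 8.21e-08), and the Unc5 ligand Flrt3, by 3.49 (SE 0.54, adjusted p = 2.19e-06) and 2.70 (SE 0.46, adjusted p = 1.01e-05). Lower were Rgma, a ligand of Neo1, at -5.92 (SE 0.49, adjusted p = 8.26e-12) and -5.41 (SE 0.42, adjusted p = 1.27e-12), Dag1, a partner of Slits, at -2.44 (SE 0.35, adjusted p = 5.26e-07) and -2.45 (SE 0.31, adjusted p = 4.16e-08), and Flrt1, at -2.86 (SE 0.42, adjusted p = 1.08e-06) and -2.42 (SE 0.37, adjusted p = 1.52e-06). Rgma had 1.08 ± 0.416 CPM in neurons and 67 ± 20.3 CPM in astrocytes in P301S (SD, n = 6 and 5). In non-Tg it had 1.25 ± 1.16 CPM in neurons and 52.8 ± 19.1 CPM in astrocytes (SD, n = 8 and 6). Rgma was thus higher in the same sorted fraction as its receptor, and whether the same cells hold both was not tested.

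No guidance gene passed edgeR's test between P301S and non-Tg in either cell type. In neurons, 50 members were tested between P301S and non-Tg, and edgeR called 0 of them (0.00913% of 10951 genes were called, which is 1 gene, higher in P301S). The smallest adjusted p was 0.111. At an unadjusted p under 0.05 there were 7 members, 2 higher and 5 lower in P301S, which is 14% of the members against 7.73% of all genes. DESeq2 called 1 member and limma with voom 1, in both Ntn5. No member had P301S and non-Tg neuron libraries that did not overlap, where 0.21% of all genes did, and the median log2 change was 0.06 over the members and -0.02 over all genes.

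Ntn5, a netrin known from sites of adult neurogenesis, had the smallest p in neurons. It had 1.44, 2.23 and 2.84 CPM in P301S neurons, against 2.65, 6.39 and 10.7 CPM in non-Tg neurons, which is 3 to 6 counts per library in P301S and 5 to 57 in non-Tg. All 6 P301S values lay below the non-Tg mean, with overlap near the lowest non-Tg library, and the log2 change was -1.61 (SE 0.32, adjusted p = 0.111). Ntn5 was tested in only 8 of the 14 fits that left out 1 library. Leaving out non-Tg neuron library 5 gave -1.72 with an adjusted p of 0.0274, and 18.37% of the exon bases of Ntn5 overlap the neighbouring gene Sec1. The gene was at 1 count in all P301S astrocyte libraries together and at 3 in all non-Tg ones.

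Robo3 had 26.7, 40.2 and 54.3 CPM in P301S neurons, against 11.6, 24 and 49.9 CPM in non-Tg neurons. All 6 P301S libraries lay above the non-Tg mean, but non-Tg library 8 exceeded 4 of them, and the change was 0.64 (SE 0.24, adjusted p = 0.513). Without non-Tg libraries 2 and 8, the deepest of their group, it was 0.91 with an adjusted p of 0.0436. Without the 2 non-Tg libraries whose sample identifiers come from another range it was 0.79 with an adjusted p of 0.0434. Robo2 had 95.6, 113 and 126 CPM in P301S neurons, against 121, 134 and 199 CPM in non-Tg neurons. Its P301S libraries all lay below the non-Tg mean and overlapped the lower non-Tg libraries, with a change of -0.37 (SE 0.14, adjusted p = 0.519).

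Sema3c, a secreted class 3 semaphorin, stood higher in P301S neurons at an unadjusted p under 0.05, by 0.64 (SE 0.30, adjusted p = 0.634). The other members with small p in neurons stood lower in P301S. Unc5c had 40.8, 67.3 and 83.4 CPM in P301S neurons, against 70.1, 87.5 and 107 CPM in non-Tg neurons, a change of -0.41 (SE 0.16, adjusted p = 0.533). Sema5a, which can attract or repel through its sugar chains, had 73, 111 and 141 CPM in P301S neurons, against 86.4, 160.1 and 248 CPM in non-Tg neurons, a change of -0.55 (SE 0.21, adjusted p = 0.534). Sema4f, known from synaptic contacts, had 18.7, 22.6 and 29.2 CPM in P301S neurons, against 17.7, 32.3 and 39.5 CPM in non-Tg neurons, a change of -0.40 (SE 0.18, adjusted p = 0.633). All 6 P301S libraries lay below the non-Tg mean for each of these genes, and all overlapped the non-Tg range. For the Eph receptors that lead in neurons no change was called: Epha7 changed by 0.03 (SE 0.13, adjusted p = 0.971), Epha6 by 0.07 (SE 0.10, adjusted p = 0.903) and Epha4 by -0.19 (SE 0.12, adjusted p = 0.75).

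**Figure D4:**
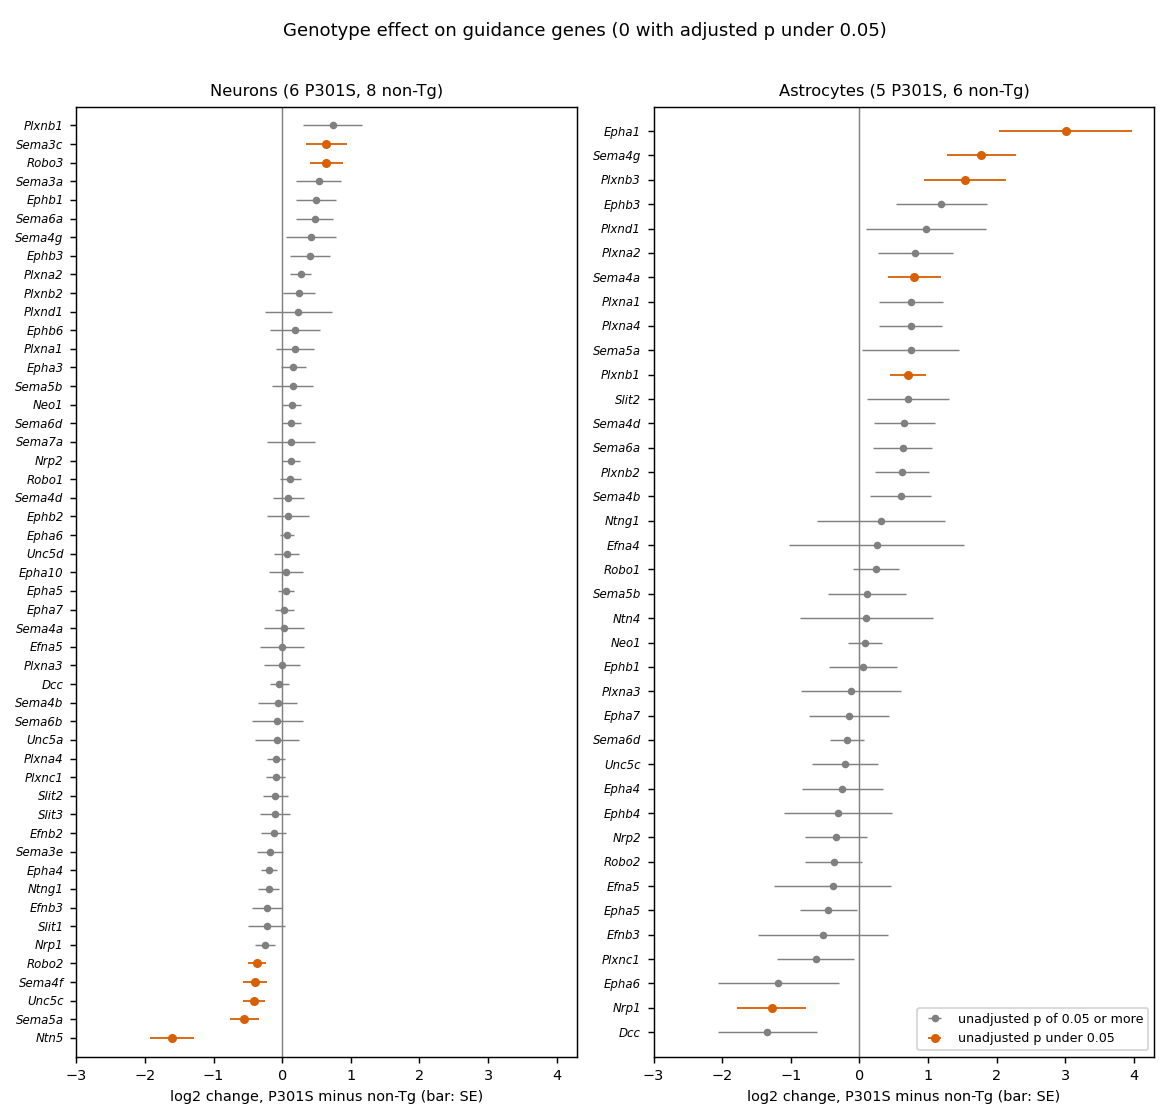
Log2 change of guidance genes in P301S against non-Tg, in neurons (left, 50 genes) and astrocytes (right, 38 genes), with standard errors; orange marks an unadjusted p under 0.05. No gene passed an adjusted p of 0.05 in either cell type, and the median standard error is 0.22 in neurons and 0.56 in astrocytes.

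In astrocytes, 38 members were tested and edgeR again called 0 (0.544% of 12130 genes were called, 0.519% higher and 0.0247% lower). The smallest adjusted p was 0.110. At an unadjusted p under 0.05 there were 6 members, 5 higher and 1 lower in P301S, which is 15.8% of the members against 13.4% of all genes. DESeq2 called 2, Epha1 and Sema4g, while limma with voom called 0. The median log2 change was 0.18 over the members and 0.13 over all genes, and voom moved that of all genes by -0.28. For 1 member, Nrp1, the groups did not overlap, which was so for 2.14% of all genes.

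Of the 5 members that stood higher, 2 were class 4 semaphorins and 2 class B plexins. Sema4g had 74.9, 19.9, 208, 220.0 and 140.1 CPM in the 5 P301S astrocyte libraries, against 15.2, 38.8 and 66.7 CPM in non-Tg astrocytes. Of the P301S libraries 4 lay above the highest non-Tg library and 1 did not, and the log2 change was 1.78 (SE 0.50, adjusted p = 0.11). Without that lower library, library 2, it was 2.07 with an adjusted p of 0.0232. Sema4a had 88.8, 53.9, 166, 124 and 98.7 CPM in the 5 P301S astrocyte libraries, against 33.1, 50.2 and 100.1 CPM in non-Tg astrocytes. Here 4 of the 5 lay above the non-Tg mean within an overlapping range, with a change of 0.80 (SE 0.38, adjusted p = 0.37).

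Plxnb1 had 341, 492, 611, 278 and 562 CPM in the 5 P301S astrocyte libraries, against 154, 301.1 and 347 CPM in non-Tg astrocytes. All 5 P301S libraries lay above the non-Tg mean, 2 of them within the non-Tg range, and the change was 0.71 (SE 0.26, adjusted p = 0.233). Plxnb3 had 42, 49.2, 93.6, 102 and 1.85 CPM in the 5 P301S astrocyte libraries, against 15, 19.7 and 24.5 CPM in non-Tg astrocytes. Here 4 P301S libraries lay above every non-Tg library and P301S library 5 below all of them, with a change of 1.54 (SE 0.60, adjusted p = 0.256). Epha1, an Eph receptor known from epithelia, had 5.29, 83.1, 1.84, 28.4 and 2.96 CPM in the 5 P301S astrocyte libraries, against 0.314, 2.91 and 7.22 CPM in non-Tg astrocytes. Its change of 3.01 (SE 0.97, adjusted p = 0.165) rested largely on P301S libraries 2 and 4, and without library 2 it was 1.66 with an adjusted p of 0.403.

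P301S astrocyte libraries 3 and 4 had the highest oligodendrocyte marker sums, 1285 and 1063 CPM, and detected the fewest genes of their group. The mean log level of the same markers, used as the covariate, was highest in library 3 and lowest in library 4 of that group, so the sum and the level place library 4 at opposite ends. The part of these cells in the differences was not tested apart from the values that follow. Without both libraries, Plxnb1 changed by 0.73, Plxnb3 by 0.66, Sema4a by 0.39 and Sema4g by 1.0. With the oligodendrocyte marker level as a covariate, the changes were 0.47 for Plxnb1, 1.39 for Plxnb3, 0.39 for Sema4a and 1.67 for Sema4g. With genes detected as a covariate, they were 0.62, 0.84, 0.68 and 0.73 for the same genes. None of these 12 values was called. Markers of oligodendrocyte precursors summed to 41.2 to 505 CPM in P301S astrocytes, with a median of 300.4, and 81.6 to 161 CPM in non-Tg astrocytes, with a median of 90.2. All P301S astrocyte libraries but library 4 lay above every non-Tg one, and the part of these cells was not tested.

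Nrp1 was the 1 member that stood lower in P301S astrocytes at an unadjusted p under 0.05. It had 17.8, 17.1, 11.8, 16.5 and 9.98 CPM in the 5 P301S astrocyte libraries, against 17.9, 32.9 and 58.1 CPM in non-Tg astrocytes. All 5 P301S libraries lay below all 6 non-Tg libraries, by a narrow margin at the edge, and the change was -1.28 (SE 0.50, adjusted p = 0.26). In 1 fit of all 25 libraries, which shares the spread between the cell types, 8 of 55 members were called in astrocytes, which is 14.5% against 11.8% of all genes: Epha1, Sema4g and Slit1 higher and Dcc, Efnb2, Nrp1, Sema3c and Sema3e lower in P301S. The fit of astrocytes alone tested Dcc, Epha1, Nrp1 and Sema4g of these and called none. Slit1, Efnb2, Sema3c and Sema3e did not pass its filter.

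**Figure D5:**
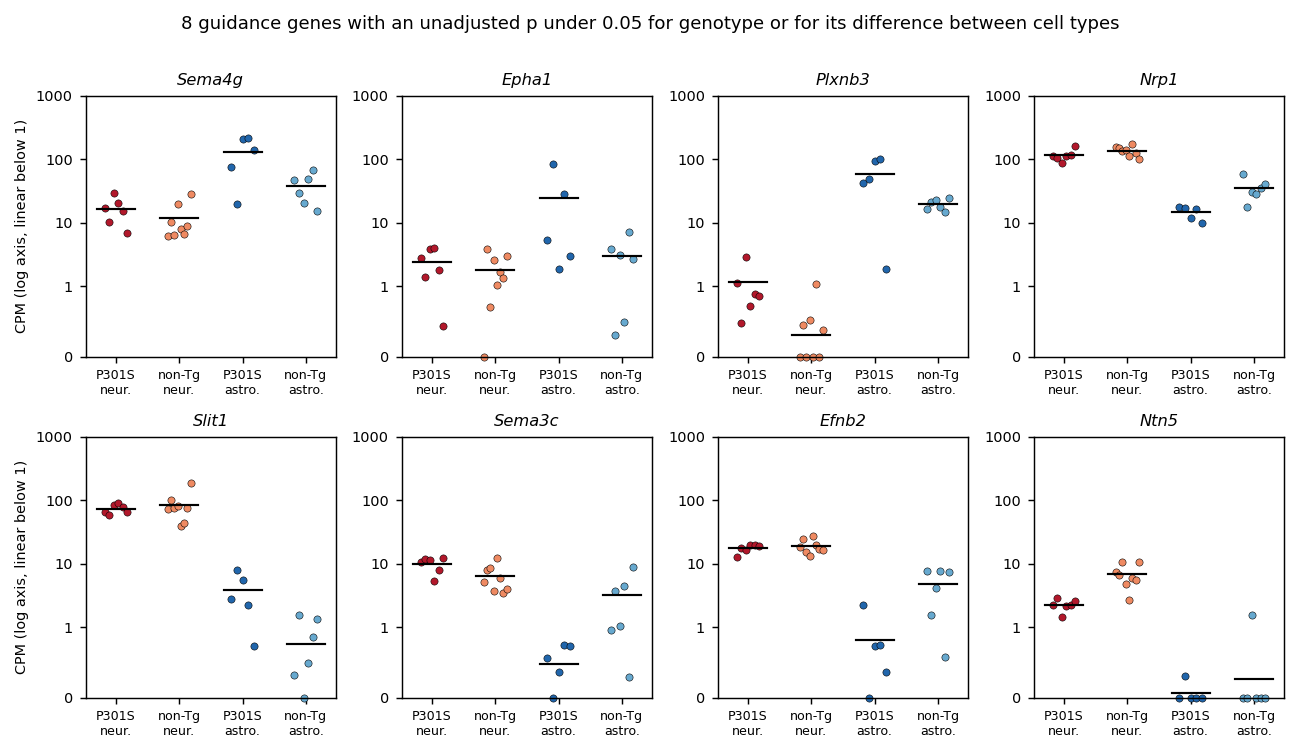
Level of 8 guidance genes with an unadjusted p under 0.05 for genotype or for the difference of its effect between cell types, as CPM per library on a log axis that is linear below 1 CPM; lines are group means. P301S astrocytes lie lower than non-Tg astrocytes in every library for Nrp1, and mostly higher for Sema4g and Plxnb3, while the neuron groups overlap for all 8.

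Whether the genotype effect differed between astrocytes and neurons was tested directly on 55 members in the fit of all 25 libraries. edgeR called 0 (0.394% of 14197 genes were called, 0.204% with a higher and 0.19% with a lower effect in astrocytes), and the smallest adjusted p was 0.0692. At an unadjusted p under 0.05 there were 10 members, 3 with a higher and 7 with a lower effect in astrocytes, which is 18.2% against 14.8% of all genes. DESeq2 called 3, Slit1, Sema3c and Efnb2, and limma with voom 0.

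Slit1 was low in astrocytes and had 58.7, 71.6 and 92.2 CPM in P301S neurons, 38.6, 75.2 and 189 CPM in non-Tg neurons, 2.78, 8.1, 5.53, 2.25 and 0.74 CPM in the 5 P301S astrocyte libraries and 0, 0.677 and 1.57 CPM in non-Tg astrocytes. The P301S astrocyte values were mostly above the non-Tg ones, within a few CPM of 0, while the neuron groups overlapped, and the difference of effects was 2.43 (SE 0.66, adjusted p = 0.0692). Sema3c, a class 3 semaphorin, had 5.4, 11.1 and 12.5 CPM in P301S neurons, 3.4, 5.62 and 12.2 CPM in non-Tg neurons, 0.557, 0, 0.369, 0.748 and 0.74 CPM in the 5 P301S astrocyte libraries and 0.289, 2.41 and 8.95 CPM in non-Tg astrocytes. All P301S astrocyte libraries were at or under the floor of 3 counts, and the difference of effects was -3.36 (SE 0.92, adjusted p = 0.0708). For Efnb2, with the values given above, P301S astrocyte library 1 held 8 counts and the other 4 at most 2, and the difference of effects was -2.32 (SE 0.75, adjusted p = 0.125). Each of these 3 rests on low astrocyte counts: at most 26 counts of Slit1, 27 of Sema3c and 24 of Efnb2 in any astrocyte library. Leaving out P301S astrocyte library 1 brought all 3 below an adjusted p of 0.05, at 0.0331 for Slit1, 0.045 for Sema3c and 0.0239 for Efnb2. Slit1 also passed without P301S astrocyte library 4, at 0.0452, or 5, at 0.03, and Sema3c without non-Tg astrocyte library 5, at 0.0375.

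Among the genes around the receptors, edgeR called no genotype change within a cell type. Of the intracellular effectors, edgeR called 0 of 36 tested between P301S and non-Tg in neurons, with 3 at an unadjusted p under 0.05 (8.33% against 7.73% of all genes), and 0 of 35 in astrocytes, with 8 (22.9% against 13.4%). DESeq2 called 0 and 1 of them and voom 0 and 0 in the same order. Of the further ligands, receptors and partners, edgeR called 0 of 16 in neurons, with 2 at an unadjusted p under 0.05 (12.5%), and 0 of 16 in astrocytes, with 1 (6.25%), and DESeq2 and voom called 0 in both. For the difference of effects, edgeR called 0 of 39 effectors, with 7 at an unadjusted p under 0.05 (17.9% against 14.8% of all genes). DESeq2 and voom also called 0 of the effectors. Of the further genes edgeR called 1 of 17 (5.88% against 0.394% of all genes), with 2 at an unadjusted p under 0.05 (11.8%). The called gene was Chl1, an adhesion protein of neurons, which DESeq2 also called and voom did not. It had 269.6 ± 34.3 CPM in P301S neurons (SD, n = 6), 369 ± 78.1 CPM in non-Tg neurons (SD, n = 8), 73.3 ± 38.0 CPM in P301S astrocytes (SD, n = 5) and 32.5 ± 6.14 CPM in non-Tg astrocytes (SD, n = 6). The difference of effects, astrocytes minus neurons, was 1.62 (SE 0.35, adjusted p = 0.0361).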

How the data were processed

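RNA was sequenced from sorted neurons and astrocytes in 25 libraries. Reads were aligned with GSNAP to GRCm38, per the submitters' processing notes, while the sources used here give no version, annotation or strand setting. The deposited files give each gene's raw count, per the file headers. They also give RPKM values that the authors adjusted by size factor, and each equals the count times a factor of the library and a factor of the gene. IDs without a symbol held 3.30% of counts and stayed in the tests.

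Counts were tested with edgeR 4.0.16 in R 4.3.3 (TMM scaling, filterByExpr, quasi-likelihood F test, Benjamini-Hochberg adjustment over all genes tested). Genotype was fitted within each cell type, and cell type and the difference of genotype effects in 1 fit of all 25 libraries. CPM values use the TMM factors of that fit. DESeq2 1.42.0, limma 3.58.1 with voom and quality weights, RLE size factors, other filters, covariates and left-out libraries were tried as alternatives. The fits were tested on simulated data. Tables and figures were made with pandas 2.3.3 and matplotlib 3.10.9 in Python 3.11.15. Intervals and floors (3 counts) cover counting error only. The smallest chi-square per degree of freedom between libraries of a group was 1.84, so none was counted as a repeat of another.

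The members and gene lists were chosen with earlier results of these data known. Members with values in the text are the 6 with the smallest p in each genotype comparison, the 3 with the smallest p for the difference of effects, the 10 higher and 10 lower called members with the smallest p between cell types in non-Tg, the member of each family with the highest RPKM, and 14 genes fixed by name. Others are named as examples of their family.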

Additional observations from a re-analysis of the deposited data

Results flagged for a closer look

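Among 127 groups of library values of the named genes, 12 held 1 library far from the others of its group, and chance gives this in about 1 in 20 groups. In non-Tg neurons, library 8 stood apart for Robo3 with 49.9 CPM (others 11.6 to 26.9), for Slit1 with 189 CPM (others 38.6 to 102) and for Ntng2 with 10.54 CPM (others 0.529 to 4.21). Library 5 of that group had 199 CPM of Robo2 (others 121 to 157). In P301S neurons, library 1 had 173 CPM of Ntng1 (others 90.3 to 106) and 45.8 CPM of Sema6a (others 9.94 to 23.1).

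In P301S astrocytes, library 3 had 115 CPM of Plxna4 (others 21.2 to 43.4) and 123.1 CPM of Slit2 (others 12.6 to 28.1). Library 4 of that group had 471 CPM of Sema6a (others 105 to 178), and library 5 had 96.5 CPM of Robo2 (others 29.3 to 44.2). In non-Tg astrocytes, library 2 had 11.3 CPM of Ntng1 (others 0 to 3.53) and library 6 had 13.6 CPM of Sema3e (others 1.16 to 5.36).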

How the results depend on the processing

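In P301S against non-Tg astrocytes, where the count of members called was 0, it was 2 with DESeq2, 2 with no filter, 8 in 1 fit of all 25 libraries, and 0 to 1 when 1 library was left out. In neurons it was also 0, and it was 1 with DESeq2, 1 with voom, 1 with genes detected as a covariate, 1 without the 2 non-Tg libraries of another identifier range, 1 without non-Tg libraries 2 and 8, and 0 to 1 when 1 library was left out. The count for the difference of effects was 0, against 3 with DESeq2 and 0 to 3 when 1 library was left out. Over all genes, DESeq2 called 441 in astrocytes against 66 with edgeR, 49 against 1 in neurons and 425 against 56 for the difference of effects. In astrocytes, 561 of 27457 genes were called with no filter and 1682 of 14197 in 1 fit of all 25 libraries. In neurons, voom called 41 and the fit with genes detected 7 of 10951. Leaving out the libraries of another identifier range gave 38 of 10566, and leaving out non-Tg libraries 2 and 8 gave 73 of 10377. Without P301S astrocyte library 1, 522 of 14346 genes were called for the difference of effects.

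Between cell types in P301S, 44 members were called, 26 with genes detected and 19 with the oligodendrocyte marker level as a covariate. In non-Tg, 43 were called, and 22 with the oligodendrocyte covariate. Over all 14197 genes, calls went in the same settings from 7420 to 3445 and 2076 in P301S, and from 6659 to 2373 in non-Tg. Both covariates differ between the cell types, so that covariate and cell type cannot be told apart. Leaving out 1 library gave 42 to 45 calls in P301S and 40 to 43 in non-Tg. The non-Tg difference of Robo1, -0.01, was 0.18 with RLE, 0.18 with DESeq2, 0.16 with voom, 0.054 with no filter, 0.13 with a filter at 1 CPM, 0.12 with genes detected and 0.16 with the oligodendrocyte level as covariates. It was 0.10 without the libraries of another identifier range, 0.075 without P301S astrocyte libraries 3 and 4, 0.0030 without non-Tg neuron libraries 2 and 8, and -0.096 to 0.12 when 1 library was left out. With the oligodendrocyte covariate, Nrp2 turned to -0.40 and Unc5c to 1.54, and the cause was not tested. Nrp2 also lost its call with no filter, with genes detected as a covariate and without the libraries of another identifier range. Dcc, Epha4, Epha5, Ephb3, Ntng1, Robo2, Sema3a, Sema3e, Sema4a and Sema4g each lost their non-Tg call in 1 alternative. Over the alternatives, the difference came as near 0 as -0.22 for Ephb3 and -1.16 for Sema4a. With 1 library left out it was -2.65 to -2.37 for Ephb3 and -2.68 to -2.29 for Sema4a. RLE, DESeq2 and voom each kept all 43 non-Tg calls.

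Of 120 single-gene alternatives in astrocytes 112 kept their side of the threshold, of 136 in neurons 130, and of 105 for the difference of effects 96. All others were newly called in the same direction. The sets without P301S astrocyte libraries 3 and 4 or non-Tg neuron libraries 2 and 8 were chosen after seeing the data. No paired analysis was possible because the labels carry no replicate numbers. Depth limits the genes near the floor of 3 counts, among them most ephrins and netrins.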
